A study of Mus musculus and Homo sapiens with 17 samples.

Results

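Interferon response genes are a group of 37 genes whose transcription rises when a cell receives an interferon signal. The members were chosen by name as antiviral effectors, nucleic acid sensors and transcription factors of the interferon system, without chemokines and MHC genes. Of the 36 mouse genes listed, 36 were found among 54532 named features of the mouse count table, and of the 37 human genes 36 were found among 58735 in the human table, where IFI6 was added and OASL1 had no row. Every member found passed the filter on low counts, so 36 genes were tested in each species and 35 could be set side by side.

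The study asked what loss of DUSP1, a phosphatase that switches off MAP kinases, does to squamous cell carcinoma of the skin (SCC). In mice of a C57BL/6-129 background, lesions were produced with the carcinogen DMBA and the tumour promoter TPA, and RNA was taken from full sections of frozen tissue. There were 2 libraries of Dusp1KO SCC, 3 of Dusp1KO papilloma (a benign tumour), 3 of WT SCC and 3 of WT skin, and all 11, the skin included, are labelled as DMBA/TPA treated. In the human experiment A431 cells, an established epidermoid carcinoma line, carried a guide RNA against DUSP1 (3 libraries) or a guide named Tomato as control (3 libraries), grew for 3 weeks as intradermal xenografts from 100000 cells, and were recovered by depleting mouse cells. Neither the kind of mouse Dusp1 allele, nor the age of the mice, nor the number of A431 clones is stated in the sources used here, and nothing says whether replicates came from separate animals, so p-values measure only the spread between these libraries. The column names of all 3 A431 DUSP1 KO libraries share the tag CL2, whose meaning is not stated, so these libraries may come from a single clone.

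Mouse libraries held 34.4 to 47.9 M counts each and A431 libraries 41.2 to 53.5 M. DUSP1 itself had 71.0 to 77.1 CPM (counts scaled to a common, normalized library size) in A431 DUSP1 KO cells, against 467 to 485 CPM in control cells. In mouse the transcript went against the labels, with Dusp1 at 139 and 174 CPM in the SCC and 109 to 129 CPM in the papillomas labelled KO, against 66.6 to 83.7 CPM in WT SCC. Whether these mice make a DUSP1 protein was not measured, and the mouse groups are called by their labels below. The mouse libraries are also unequal within groups: papilloma library 1 was the highest of its group for 30 of 36 members, WT skin library 3 for 26, WT SCC library 3 for 25, and KO SCC library 2 was above library 1 for 34. By label the cell type is keratinocytes, and keratinocyte markers were abundant in all groups, but markers of macrophages, fibroblasts and endothelium were present in every mouse library as well.

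Cells release type I and type III interferons when sensors such as RIG-I (DDX58), MDA5 (IFIH1) or cGAS meet foreign or misplaced nucleic acid. Binding of interferon to its receptor activates JAK kinases, and a complex that contains STAT2 and IRF9 then binds the interferon-stimulated response element (ISRE) in promoters, while type II interferon acts through a GAS element. Most cells keep a low basal level of these genes, and several of the products, such as STAT2, IRF9 and IRF7, are themselves parts of the pathway.

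Promoters were looked at for what the members share beyond their names. RefSeq promoter windows on GRCm38.p6, from 250 bases before to 50 bases after a gene start, were at hand for 28 of the 36 mouse members; Usp18, Dhx58, Parp9, Zbp1, Parp14, Mx1, Oas2 and Mx2 had none. The ISRE core (GAAA, any 2 bases, GAAA), read on both strands, occurred in 13 of the 28 (46.4%), against 3.99% of all 27025 genes in the table. The GAS letters TTCNNNGAA occurred in 7 of the 28 (25%), against 9.55% of all genes. The sequences below are those of members that recur in the results, each read 5′ to 3′ on the strand of the gene and with the matched letters in capitals. The core on the opposite strand reads TTTC, any 2 bases, TTTC, and cores that overlap in Isg15 and Oas1a are capitalised together.

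Ifit1, ISRE core, chr19:34640765-34640833 (plus strand): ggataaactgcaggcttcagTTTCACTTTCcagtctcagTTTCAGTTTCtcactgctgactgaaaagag
Ifit3, ISRE core, chr19:34583353-34583436 (plus strand): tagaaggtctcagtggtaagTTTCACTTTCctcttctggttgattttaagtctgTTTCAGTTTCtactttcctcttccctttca
Isg15, ISRE core, chr4:156200855-156200916 (minus strand): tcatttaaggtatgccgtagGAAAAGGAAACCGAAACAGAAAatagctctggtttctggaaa
Oas1a, ISRE core, chr5:120907526-120907565 (minus strand): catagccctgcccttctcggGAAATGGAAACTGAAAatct
Rsad2, ISRE core, chr12:26456543-26456592 (minus strand): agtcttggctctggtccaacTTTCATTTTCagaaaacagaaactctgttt
Stat2, ISRE core, chr10:128270256-128270305 (plus strand): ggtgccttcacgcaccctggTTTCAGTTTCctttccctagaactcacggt
Irf1, GAS, chr11:53769904-53769952 (plus strand): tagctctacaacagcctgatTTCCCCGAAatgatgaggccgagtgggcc

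Isg15 held 3 overlapping cores, Ifit1 and Ifit3 each held 2 that lie apart, and Irf1 held the GAS letters but no ISRE core in this window. Trim25, Isg20, Oasl1 and Irf1 were among the 15 members with a window and no ISRE core. So was Cmpk2, which had the largest fall of the group in WT SCC against WT skin. Other members picked out below, namely Eif2ak2, Ddx58, Rsad2 and Stat2, did hold a core. All these genes were named after their values were seen, and a link between the core and their values was not tested. A match is a run of letters, not a shown binding site.

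**Figure D1:**
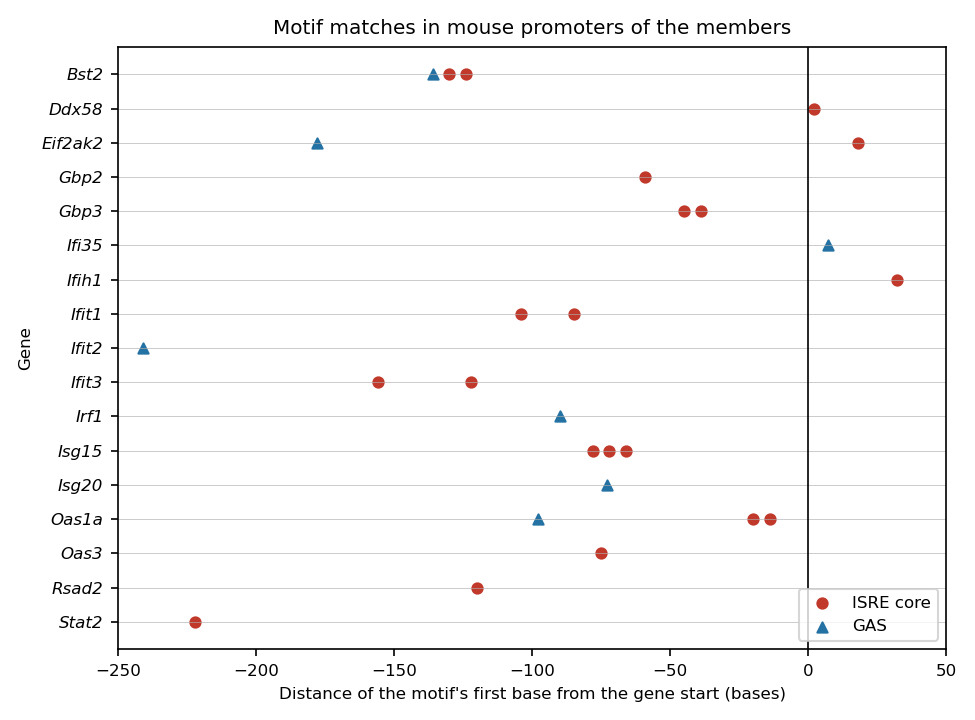
Position of each ISRE core (circle) and GAS match (triangle) relative to the RefSeq gene start, in bases, for the mouse members with a match. The ISRE core of Stat2 lies farthest upstream, and those of Ddx58, Eif2ak2 and Ifih1 lie just after the gene start.

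In A431 cells recovered from xenografts, interferon response genes were lower in DUSP1 KO cells almost throughout. Of 36 members 34 fell and none rose in edgeR's quasi-likelihood test with Benjamini-Hochberg adjustment at 0.05, the 2 exceptions being XAF1 and IRF1. By comparison, 47.6% of all 18090 genes tested passed the threshold there, 24.5% as lower and 23.1% as higher. The median log2 fold change of the members was -0.86, against 0.01 over all genes. Called members fell by 1.14-fold to 5.89-fold, and 16 of them by at least 2-fold. The share of all genes called with a fall of at least 2-fold was not computed.

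The IFIT genes, whose products bind foreign RNA and block its translation, were among those with the smallest p-values. IFIT1 had 43.0, 40.2 and 37.0 CPM in DUSP1 KO cells, against 136, 134 and 139 CPM in control cells (log2 fold change -1.77 ± 0.06 SE, adjusted p = 1.11e-13). IFIT2 had 7.86, 6.81 and 7.59 CPM in DUSP1 KO cells, against 30.9, 30.6 and 32.2 CPM in control cells (-2.07 ± 0.07, adjusted p = 5.43e-13). IFIT3 had 24.7, 22.1 and 20.3 CPM in DUSP1 KO cells, against 74.8, 73.7 and 73.8 CPM in control cells (-1.72 ± 0.06, adjusted p = 7.72e-13). In all of them every KO library lay far below every control library, and the gap between groups was many times the spread within them.

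ISG15, a ubiquitin-like protein that is joined to other proteins, fell together with HERC6 and USP18. ISG15 had 81.3, 81.7 and 90.7 CPM in DUSP1 KO cells, against 227, 209 and 237 CPM in control cells (log2 fold change -1.41 ± 0.06, adjusted p = 2.62e-12). HERC6, a ligase of the HERC family, had 28.7, 27.5 and 27.7 CPM in DUSP1 KO cells, against 63.6, 65.1 and 64.3 CPM in control cells (-1.20 ± 0.05, adjusted p = 5.17e-12). The last of these genes, USP18, removes ISG15 and restrains the type I receptor. Its log2 fold change was -1.59 ± 0.11 (adjusted p = 2.68e-09).

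IFI6, a small mitochondrial and endoplasmic reticulum protein, had 194, 205 and 211 CPM in DUSP1 KO cells, against 531, 513 and 576 CPM in control cells (log2 fold change -1.41 ± 0.05, adjusted p = 6.04e-13). MX1, a GTPase that traps viral nucleoproteins, had 59.5, 62.6 and 67.4 CPM in DUSP1 KO cells, against 151, 150.5 and 152 CPM in control cells (-1.26 ± 0.05, adjusted p = 2.99e-12). RSAD2, also called viperin, makes a chain-terminating nucleotide and had the largest fall of the group, with 1.90, 2.37 and 2.11 CPM in DUSP1 KO cells, against 12.1, 12.7 and 12.7 CPM in control cells (-2.56 ± 0.11, adjusted p = 7.10e-12). No library of one genotype overlapped the other for any of these genes. CMPK2, the kinase gene beside RSAD2, fell with it, with a log2 fold change of -1.73 ± 0.13 (adjusted p = 6.94e-09), as did MX2 (-1.68 ± 0.09, adjusted p = 9.69e-11).

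The OAS enzymes, which make the second messenger that activates RNase L, fell more evenly, with log2 fold changes of -1.01 for OAS1, -0.88 for OAS2 and -0.83 for OAS3. Among the sensors the range was wide: log2 fold changes were -1.26 for IFIH1 and -1.15 for DDX58, against -0.45 for DHX58, a regulator of the pair, and -0.19 for TRIM25, a ligase that acts on RIG-I. EIF2AK2, the kinase PKR that stops translation when it binds double-stranded RNA, had a log2 fold change of -0.75 ± 0.05 (adjusted p = 2.98e-09). ZBP1, a sensor of Z-form nucleic acid, was low in all 6 libraries, with 0.234, 0.314 and 0.285 CPM in DUSP1 KO cells, against 0.753, 0.587 and 0.541 CPM in control cells. Its call (log2 fold change -1.16 ± 0.37, adjusted p = 0.014) was lost with DESeq2 (adjusted p = 0.0518) and without control library 1 (adjusted p = 0.0772).

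The 4 transcription factors among the members had the smallest median log2 fold change of the role groups, at -0.35. STAT2 had 81.8, 88.1 and 91.1 CPM in DUSP1 KO cells, against 111, 109.9 and 109 CPM in control cells (log2 fold change -0.34 ± 0.05, adjusted p = 2.68e-05), and IRF9 had a log2 fold change of -0.36 ± 0.09 (adjusted p = 0.00202). IRF7, which amplifies interferon production, fell by 0.69 on the log2 scale (adjusted p = 6.89e-08). IRF1 had 23.3, 25.0 and 26.1 CPM in DUSP1 KO cells, against 23.7, 24.2 and 24.6 CPM in control cells (0.04 ± 0.06, adjusted p = 0.659), and its libraries overlapped. XAF1, a pro-apoptotic protein, had 30.9, 30.0 and 30.6 CPM in DUSP1 KO cells, against 32.7, 34.5 and 32.8 CPM in control cells (-0.13 ± 0.06, adjusted p = 0.0679). XAF1 passed the threshold only when KO library 1 was left out (adjusted p = 0.0376).

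**Figure D2:**
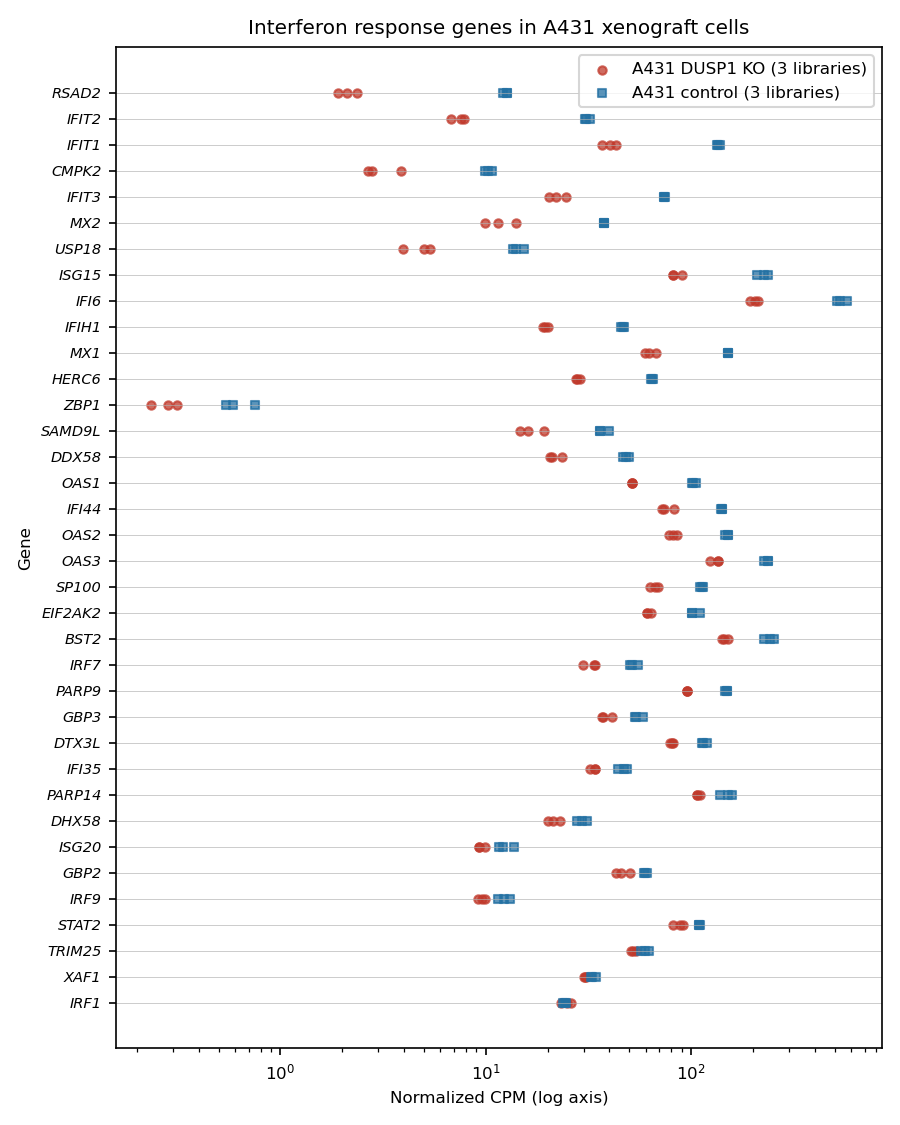
Normalized CPM of each of the 36 members in the 3 A431 DUSP1 KO libraries (circles) and the 3 control libraries (squares), on a log axis, ordered by fold change from RSAD2 at the top to IRF1 at the bottom. For 35 of the 36 members all KO libraries lie below all control libraries, the exception being IRF1, where 28.2% of all genes are separated as lower.

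The remaining effectors lay between these ends, with log2 fold changes of -0.77 for SP100, a nuclear body protein, -0.73 for BST2, which tethers budding virus to the cell surface, and -0.89 for IFI44. PARP9, DTX3L and PARP14, a group of ADP-ribosylation and ubiquitin enzymes, had log2 fold changes of -0.64, -0.52 and -0.47. GBP3 and GBP2, GTPases that attack the membranes around pathogens, had log2 fold changes of -0.52 and -0.37. The value was -1.16 for SAMD9L, an inhibitor of translation, -0.48 for IFI35 and -0.39 for ISG20, an exonuclease. Across 11 other settings and left-out libraries, 33 of the 34 calls were kept every time, ZBP1 being the exception, and 34 members were also called when KO libraries 2 and 3, whose column names end alike, were summed into 1.

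Markers of other cell types were low in both sets of A431 libraries. Summed over the macrophage list (6 of 7 genes with counts, C1QA at 0 throughout) they came to 5.80 to 7.42 CPM in DUSP1 KO cells and 5.90 to 7.24 CPM in control cells. T and NK cell markers came to 1.75 to 2.28 CPM in DUSP1 KO cells, against 0.770 to 0.927 CPM in control cells. These sums rest on few counts, 82 to 96 in a DUSP1 KO library and 36 to 49 in a control library. Summed fibroblast markers came to 75.5 to 87.2 CPM in DUSP1 KO cells, against 122 to 123 CPM in control cells, and keratinocyte markers to 65463 to 67649 CPM in DUSP1 KO cells, against 71005 to 75848 CPM in control cells. The part of these shifts in the result was not tested.

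Upstream genes of the pathway were taken from lists of interferons, receptors with their signalling proteins, and sensors. Of 9 human interferon genes 2 could be tested, and both fell in A431 DUSP1 KO cells. IFNE, the epithelial type I interferon, had 6.80, 6.11 and 6.33 CPM in DUSP1 KO cells, against 11, 10.6 and 10.0 CPM in control cells (log2 fold change -0.71 ± 0.09, adjusted p = 7.40e-06). IFNK, the keratinocyte interferon, was lower still, with 0.149, 0.217 and 0.142 CPM in DUSP1 KO cells, against 0.583, 0.568 and 0.291 CPM in control cells (-1.49 ± 0.46, adjusted p = 0.0121). The IFNK call was lost when control library 1 or 2 was left out, with a highest adjusted p of 0.0692. IFNG had 0 counts in all 6 libraries; 3 counts, taken as the upper limit for counting error, correspond to at most 0.0728 CPM there.

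Of 12 receptor and signalling genes 7 fell and none rose in A431 DUSP1 KO cells. SOCS3, a feedback inhibitor of JAK signalling, had 26.0, 24.8 and 26.0 CPM in DUSP1 KO cells, against 58.1, 57.6 and 63.0 CPM in control cells (log2 fold change -1.22 ± 0.06, adjusted p = 1.36e-11). Every KO library was below every control library. IFNGR1, a chain of the type II receptor, had a log2 fold change of -0.41 and JAK1 one of -0.20. Of 9 sensing genes tested 2 fell, namely AIM2 (-0.74 ± 0.08) and TLR3 (-0.74 ± 0.12), and 2 rose, namely TMEM173, which encodes STING (0.32 ± 0.06), and IKBKE (0.35 ± 0.08).

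Interferon-induced genes outside the member list were lower as well, 9 of 12 of them past the threshold and none higher. IFI44L had 22, 20.8 and 23.2 CPM in DUSP1 KO cells, against 56.2, 61.0 and 57.2 CPM in control cells (log2 fold change -1.40 ± 0.06, adjusted p = 4.17e-12). The log2 fold change was -1.49 for EPSTI1, -0.83 for SAMD9 and -0.83 for IFITM1, which blocks viral entry. Of 5 tested genes of a list that type II interferon induces, GBP4 (-1.37 ± 0.13) and GBP6 (-0.19 ± 0.05) fell. Of all called genes of these lists, TMEM173 and IKBKE were the ones higher in DUSP1 KO cells.

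In mouse, the clearest difference lay between WT SCC and WT skin. Of the 36 members 29 fell in WT SCC, 2 rose (Trim25 and Isg20) and 5 did not pass the threshold. Over all 22371 mouse genes tested 40.5% passed it in this comparison, 23.6% as lower and 16.9% as higher. The median log2 fold change of the members was -1.77, against -0.16 over all genes, and 25 members fell by at least 2-fold. How many of all genes were called with so large a fall was not computed. In 31 members all WT SCC libraries were below all skin libraries and in 2 they were above, where 29.9% and 24.8% of all genes are separated. As these are bulk sections, fewer cells of a type and less RNA per cell cannot be told apart.

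Summed macrophage markers came to 472 to 629.8 CPM in WT SCC, against 799 to 2079.9 CPM in WT skin, with 7 of 8 genes lower. T and NK cell markers came to 8.71 to 12.9 CPM in WT SCC, against 31.5 to 65.9 CPM in WT skin, with 6 of 8 lower. Neutrophil markers went the other way, at 35.9 to 41.7 CPM in WT SCC, against 10.3 to 15.2 CPM in WT skin. Of the 4 neutrophil genes tested, 2 were higher and 0 lower. Fibroblast markers came to 1368 to 2316 CPM in WT SCC, against 3235 to 25732 CPM in WT skin, with 5 of 5 lower, while keratinocyte markers came to 42745 to 44798 CPM in WT SCC, against 7563 to 17714 CPM in WT skin. Skeletal muscle markers, at 1.16 to 80.3 CPM in WT SCC, against 4385 to 5160.0 CPM in WT skin, fell in 4 of 4 genes, so the 2 kinds of section differ widely in make-up. The part of that difference in the members' values was not tested.

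Sp100 had 6.77, 5.85 and 7.45 CPM in WT SCC, against 27.0, 27.9 and 39.8 CPM in WT skin (log2 fold change -2.24 ± 0.28, adjusted p = 0.000138). Stat2 had 12.2, 14.6 and 14.7 CPM in WT SCC, against 30.7, 32.1 and 32.9 CPM in WT skin (-1.21 ± 0.16, adjusted p = 0.000198), and Irf9, its partner, had 19.8, 21.6 and 23.8 CPM in WT SCC, against 40.2, 44.5 and 39.0 CPM in WT skin (-0.92 ± 0.15, adjusted p = 0.000622). The 2 factors were even within each group and the groups did not overlap. Gbp2 had 7.75, 5.31 and 8.22 CPM in WT SCC, against 38.0, 29.6 and 43.9 CPM in WT skin (-2.39 ± 0.32, adjusted p = 0.000199). Gbp3, the neighbouring gene 47392 bases away on chromosome 3, had 4.21, 3.77 and 5.80 CPM in WT SCC, against 15.9, 12.2 and 22.1 CPM in WT skin (-1.86 ± 0.29, adjusted p = 0.00055). For both GBP genes all skin libraries were above all WT SCC libraries.

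Usp18 had 2.61, 1.36 and 2.07 CPM in WT SCC, against 22.6, 12.1 and 14.8 CPM in WT skin (log2 fold change -3.04 ± 0.41, adjusted p = 0.000229). The RNA sensors followed. Ddx58 had 5.55, 5.91 and 5.82 CPM in WT SCC, against 24.2, 17.2 and 22.5 CPM in WT skin (-1.89 ± 0.26, adjusted p = 0.000252). Ifih1 had 6.85, 6.88 and 7.80 CPM in WT SCC, against 22.4, 22.9 and 28.6 CPM in WT skin (-1.78 ± 0.26, adjusted p = 0.000392). In each of these genes the highest WT SCC library was below the lowest skin library.

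The largest falls were those of Cmpk2 (-4.22 ± 0.71 on the log2 scale, adjusted p = 0.000955), Ifit3 (-4.05 ± 0.78, adjusted p = 0.00213) and Rsad2 (-3.91 ± 0.86, adjusted p = 0.00453). Their SEs are also large. Ifit3 had 1.74, 1.01 and 2.21 CPM in WT SCC, against 18.2, 9.02 and 54.7 CPM in WT skin, so skin library 3 was far above the rest, and Irf7, at 3.98, 5.66 and 6.03 CPM in WT SCC, against 15.3, 12.2 and 64.1 CPM in WT skin (-2.55 ± 0.59, adjusted p = 0.00567), showed the same library apart. Without skin library 3 the median of the members was -1.27 and 29 of them were called. Irf1 fell by 1.05 (adjusted p = 0.00281), with its highest value of 68.3 CPM in skin library 1 instead.

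Trim25 and Isg20 went the other way. Trim25 had 44.4, 43.9 and 42.6 CPM in WT SCC, against 24.8, 30.4 and 28.5 CPM in WT skin (log2 fold change 0.64 ± 0.12, adjusted p = 0.00179). Isg20 had 22.2, 25.3 and 18.4 CPM in WT SCC, against 11.6, 7.23 and 10.4 CPM in WT skin (1.18 ± 0.29, adjusted p = 0.00777). In both genes all tumour libraries were above all skin libraries. Eif2ak2 had 15.7, 13.8 and 17 CPM in WT SCC, against 14.2, 14.9 and 17.1 CPM in WT skin (0.01 ± 0.23, adjusted p = 0.973), with full overlap. Oasl1, which in mouse restrains translation of Irf7, also overlapped (-0.36 ± 0.62, adjusted p = 0.661), while Ifi44 (-1.76 ± 0.67, adjusted p = 0.0559), Mx2 (-1.48 ± 0.65, adjusted p = 0.0885) and Mx1 (-1.38 ± 0.67, adjusted p = 0.119) had lower means in WT SCC but missed the threshold, which all of them passed with no filter on low counts (adjusted p of 0.00643 for Ifi44, 0.0252 for Mx2 and 0.0294 for Mx1). Across 11 other settings and left-out libraries 27 of the 31 calls were kept every time, and those of Isg15, Ifit1, Oas1a and Dtx3l were each lost at least once.

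**Figure D3:**
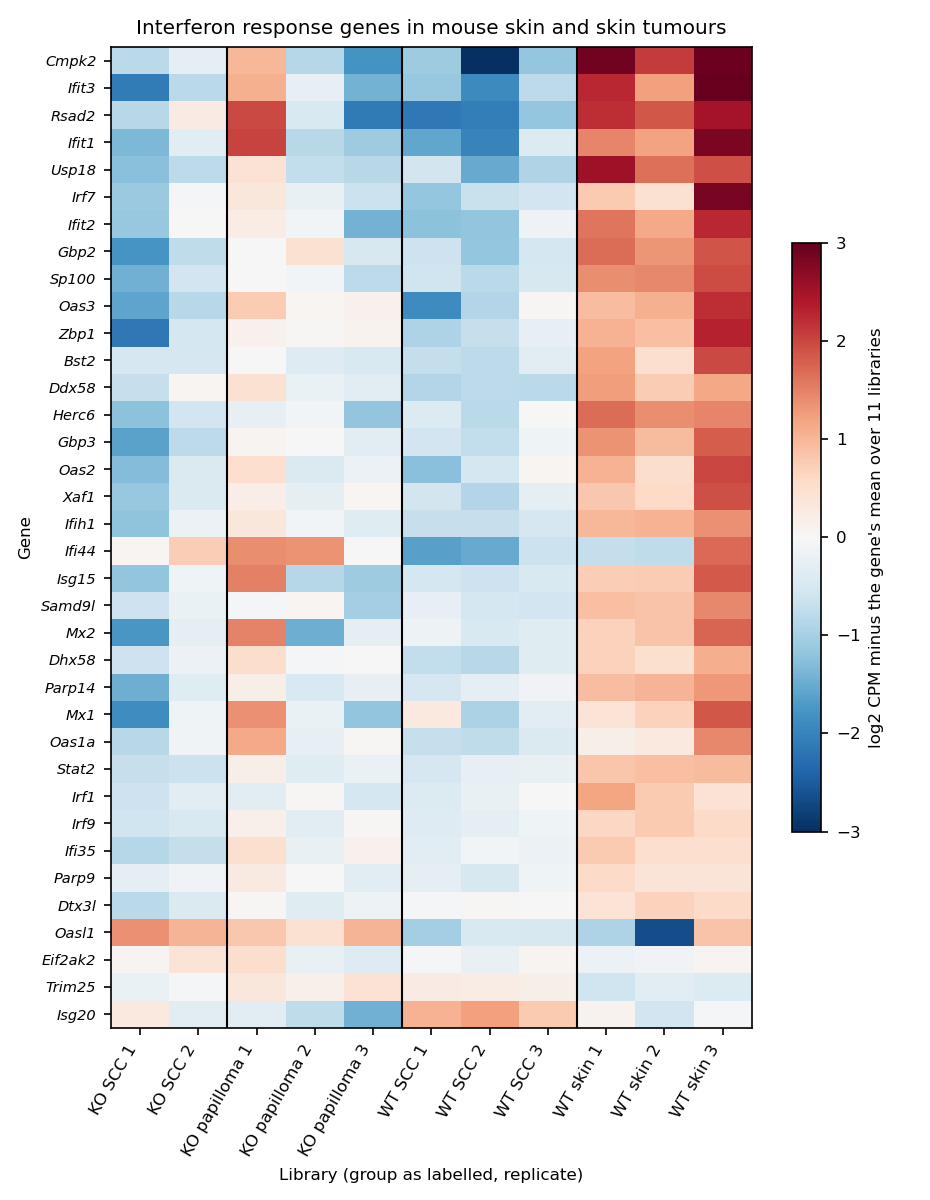
Log2 CPM of the 36 mouse members minus each gene's mean over the 11 libraries, with libraries in columns by labelled group and genes in rows ordered by the fold change of WT SCC against WT skin. Nearly all rows are highest in WT skin, Isg20 is highest in WT SCC, Oasl1 is above WT SCC in all libraries labelled KO, and papilloma library 1 stands out within its group.

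Members that lie together in the genome were compared by their positions in GENCODE M21 on GRCm38. Ifit2 (chr19:34550694-34576419), Ifit3 (chr19:34583531-34588731) and Ifit1 (chr19:34640871-34650009) lie on the plus strand within 52139 bases of the next member or less. All fell in WT SCC, with log2 fold changes of -2.51, -4.05 and -3.18. Rsad2 (chr12:26442746-26456452, minus strand) and Cmpk2 (chr12:26469204-26479837, plus strand) start 12751 bases apart in opposite directions and had log2 fold changes of -3.91 and -4.22. Dtx3l and Parp9 on chromosome 16 overlap by 682 bases at their starts, on opposite strands, with log2 fold changes of -0.57 and -0.74, smaller than those of most members; the sources used here do not say how reads in the overlap were assigned. Scaled to exon length, Bst2 was the highest member in every mouse group, with 14.9 ± 0.0934 CPM per kilobase in KO SCC (SD, n = 2), 17.4 ± 2.92 in KO papilloma (SD, n = 3), 14 ± 2.55 in WT SCC (SD, n = 3) and 53.9 ± 27 in WT skin (SD, n = 3).

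Between SCC labelled KO and WT SCC no member passed the threshold in edgeR's quasi-likelihood test, in either direction, against 7.87% of all genes (4.48% higher and 3.38% lower). At an unadjusted p under 0.05 there were 6 members of 36, where 24.8% of all genes passed, and DESeq2 called 3, where it called 18.2% of all genes with an adjusted p. The median log2 fold change was -0.15, against -0.01 over all genes, with 21 members negative and 15 positive. It was 0.11 without KO SCC library 1 and -0.41 without KO SCC library 2, so its sign rests on which of the 2 KO libraries is used. The 2 KO SCC libraries could lie on either side of the WT SCC range, as in Isg15, with 2.83 and 5.94 CPM in KO SCC, against 4.53, 4.22 and 4.73 CPM in WT SCC, and in Ifih1, with 4.85 and 9.81 CPM in KO SCC, against 6.85, 6.88 and 7.80 CPM in WT SCC. Beside these values, summed macrophage markers came to 237 to 283 CPM in KO SCC, against 472 to 629.8 CPM in WT SCC (1 of 8 genes lower), T and NK cell markers to 5.14 to 6.71 CPM in KO SCC, against 8.71 to 12.9 CPM in WT SCC (0 of 8 called), and keratinocyte markers to 57417 to 62622 CPM in KO SCC, against 42745 to 44798 CPM in WT SCC (1 of 7 higher and 1 lower). B and plasma cell markers came to 4.1 to 6.28 CPM in KO SCC, against 50 to 60.3 CPM in WT SCC (2 of 4 tested genes lower). Their part in the members' values was not tested.

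In 7 members both KO SCC libraries were below all WT SCC libraries, and in 5 both were above, where 23.7% and 22.9% of all genes are separated in these directions. The 7 were Dtx3l, Isg20, Ifi35, Trim25, Gbp3, Stat2 and Irf9. Isg20 had 13.1 and 8.64 CPM in KO SCC, against 22.2, 25.3 and 18.4 CPM in WT SCC (log2 fold change -1.02 ± 0.33, adjusted p = 0.0816). Dtx3l had 6.64 and 8.67 CPM in KO SCC, against 11.3, 12 and 11.7 CPM in WT SCC (-0.61 ± 0.19, adjusted p = 0.0705). Ifi35 had 11.8 and 13.2 CPM in KO SCC, against 17.1, 20.3 and 19.0 CPM in WT SCC (-0.59 ± 0.20, adjusted p = 0.0999). These gaps without overlap fell short of the threshold, but some passed it in other fits. Isg20 was called as lower with DESeq2 (adjusted p = 0.0247), in a fit of only these 2 groups (adjusted p = 0.0105) and with no filter on low counts (adjusted p = 0.0328). Dtx3l was called with DESeq2 (adjusted p = 0.037) and in the fit of only these 2 groups (adjusted p = 0.0425), and Ifi35 in that fit alone (adjusted p = 0.0225).

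The 5 members whose KO SCC libraries were both higher were Oasl1, Ifi44, Ddx58, Rsad2 and Cmpk2. Oasl1 had 10.3 and 8.05 CPM in KO SCC, against 1.97, 2.90 and 2.84 CPM in WT SCC (log2 fold change 1.83 ± 0.68, adjusted p = 0.123). It was the widest gap of the group, and it passed the threshold with DESeq2 (adjusted p = 0.0213), in a fit of only these 2 groups (adjusted p = 0.00169) and with no filter on low counts (adjusted p = 0.00496). Ifi44 had 1.96 and 3.13 CPM in KO SCC, against 0.610, 0.659 and 1.19 CPM in WT SCC (1.63 ± 0.73, adjusted p = 0.192), and it passed in the fit of only these 2 groups (adjusted p = 0.0233) and with no filter (adjusted p = 0.0484). Rsad2 was low in both groups, at 0.577 and 1.22 CPM in KO SCC, against 0.232, 0.247 and 0.466 CPM in WT SCC (1.5 ± 0.90, adjusted p = 0.335).

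**Figure D4:**
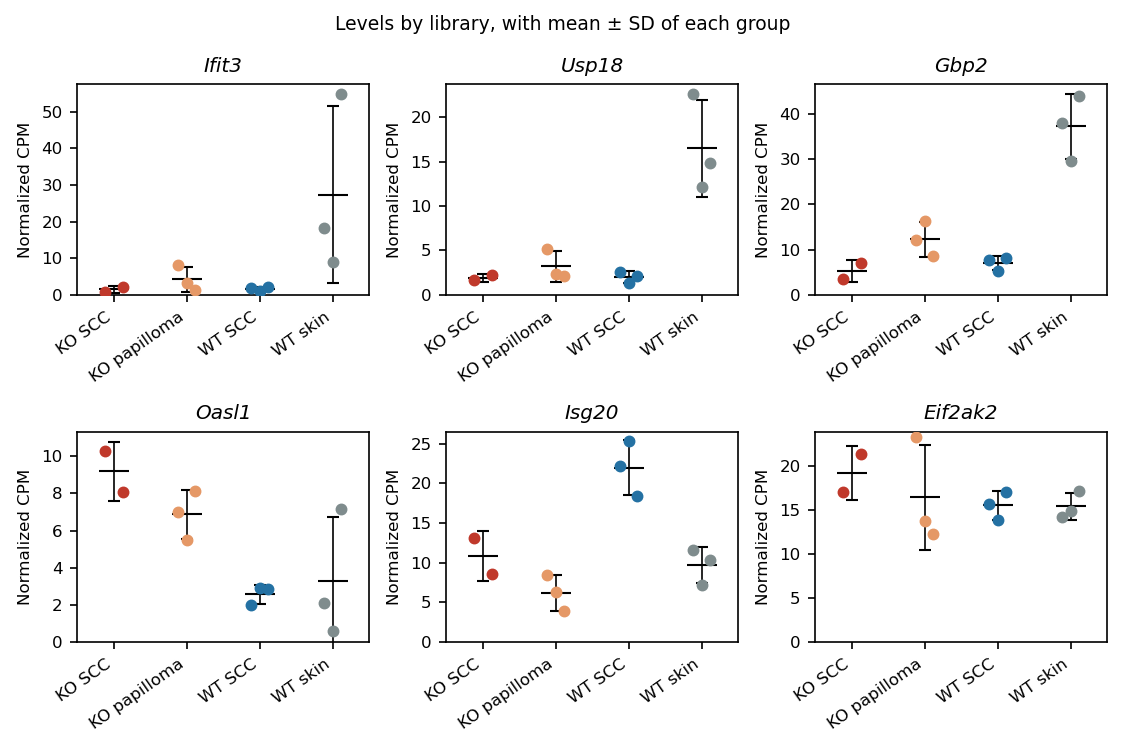
Normalized CPM of 6 members in every mouse library, by labelled group, with the mean ± SD of each group (n = 2 for KO SCC, 3 for the others). Ifit3, Usp18 and Gbp2 are highest in WT skin, Oasl1 is higher in both groups labelled KO than in WT SCC, Isg20 is highest in WT SCC, and Eif2ak2 overlaps between all groups.

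Papillomas labelled KO were compared with WT SCC, a comparison in which genotype and kind of lesion change together and cannot be told apart. Isg20 fell and no member rose, against 5.25% of all genes (3.49% higher and 1.77% lower). Isg20 had 8.40, 6.28 and 3.93 CPM in KO papilloma, against 22.2, 25.3 and 18.4 CPM in WT SCC (log2 fold change -1.83 ± 0.29, adjusted p = 0.00455), and every papilloma was below every WT SCC. This call was kept under all 11 other settings and left-out libraries. The median of the members was 0.59, against 0.02 over all genes, but 0.17 without papilloma library 1.

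Papilloma library 1 carried much of that median. Ifit1 had 17.4, 2.38 and 2.04 CPM in KO papilloma, against 1.45, 1.07 and 3.21 CPM in WT SCC (log2 fold change 1.92 ± 0.82, adjusted p = 0.227), with only library 1 above the WT SCC range. Oasl1 had 6.99, 5.50 and 8.10 CPM in KO papilloma, against 1.97, 2.90 and 2.84 CPM in WT SCC (1.41 ± 0.63, adjusted p = 0.246), and here all 3 papillomas were above all WT SCC. Ddx58 had 14, 8.78 and 8.07 CPM in KO papilloma, against 5.55, 5.91 and 5.82 CPM in WT SCC (0.84 ± 0.25, adjusted p = 0.0909), again without overlap. In all, 9 members were separated as higher and 1 as lower, where 13% and 13.5% of all genes are. DESeq2 called 5 of the 36 members, Ddx58, Dhx58, Ifi44 and Rsad2 as higher beside Isg20, where it called 10.2% of all genes. Summed T and NK cell markers came to 10 to 14.8 CPM in KO papilloma and 8.71 to 12.9 CPM in WT SCC, and macrophage markers to 234 to 361 CPM in KO papilloma, against 472 to 629.8 CPM in WT SCC. B and plasma cell markers came to 2.54 to 22.3 CPM in KO papilloma, against 50 to 60.3 CPM in WT SCC (2 of 4 tested genes lower). The part of these markers in the members' values was not tested.

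Within the lesions labelled KO, SCC was compared with papilloma, which shares its libraries with the comparisons above. No member passed the threshold in edgeR's quasi-likelihood test, where 0.286% of all genes did (0.0492% higher and 0.237% lower). There were 11 members of 36 with an unadjusted p under 0.05, where 15.6% of all genes passed. DESeq2 called 3, Ifi35, Gbp2 and Gbp3, all as lower, where it called 5.33% of all genes. The median was -0.59, against -0.05 over all genes, and it was -0.36 without KO SCC library 1, -0.99 without KO SCC library 2 and -0.32 without papilloma library 1. In 13 members both SCC were below all papillomas and in 1, Isg20, they were above, where 15.5% and 16.1% of all genes are separated. Ifi35 had 11.8 and 13.2 CPM in KO SCC, against 30.1, 18.4 and 23.5 CPM in KO papilloma (log2 fold change -0.94 ± 0.21, adjusted p = 0.105), and Gbp2 had 3.49 and 7.03 CPM in KO SCC, against 12, 16.2 and 8.47 CPM in KO papilloma (-1.21 ± 0.35, adjusted p = 0.174). Both sets of values were apart but short of the threshold, which Ifi35 (adjusted p = 0.0233) and Gbp2 (adjusted p = 0.0174) passed with no filter on low counts. Beside these values, summed T and NK cell markers came to 5.14 to 6.71 CPM in KO SCC, against 10 to 14.8 CPM in KO papilloma (0 of 8 called, median log2 fold change -1.09). Macrophage markers came to 237 to 283 CPM in KO SCC, against 234 to 361 CPM in KO papilloma (0 of 8 called), and keratinocyte markers to 57417 to 62622 CPM in KO SCC, against 47549.8 to 76721 CPM in KO papilloma (2 of 7 lower). Their part in the members' values was not tested.

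Split by promoter, the 13 members with an ISRE core had a median log2 fold change of -1.89 in WT SCC against WT skin and the 15 without had -1.53. For KO SCC against WT SCC the medians were 0.03 with a core and -0.25 without, and for KO papilloma against WT SCC 0.84 and 0.35. The ranges of the subsets overlapped widely in each comparison, for example -4.05 to 0.01 with a core and -4.22 to 1.18 without in WT SCC against WT skin.

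Of 10 mouse interferon genes 4, all of the alpha class, had 0 counts in all 11 libraries, and only Ifng passed the filter on low counts. Ifng had 0, 0.206 and 0.116 CPM in WT SCC, against 1.32, 1.13 and 0.388 CPM in WT skin (log2 fold change -3.05 ± 0.94, adjusted p = 0.0233), a call lost under 4 of 11 other settings and left-out libraries. In KO SCC Ifng had 0.231 and 0.124 CPM, overlapping WT SCC (0.66 ± 1.03, adjusted p = 0.756). Of 12 genes that type II interferon induces, 11 fell in WT SCC against WT skin, with Irgm2 at -3.02 ± 0.34 and Igtp at -2.59 ± 0.32 on the log2 scale, and none was called between KO SCC and WT SCC. Of 17 other interferon-induced genes 14 fell in WT SCC against WT skin and none rose.

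Of 12 sensing genes 2 rose and none fell in KO SCC against WT SCC, with a median log2 fold change of -0.36 over the list. Of 17 other interferon-induced genes 1 rose and 2 fell, with a median of -0.29. Ifi204, a DNA sensor of the IFI16 family, had 134 and 95.7 CPM in KO SCC, against 15, 12 and 15.4 CPM in WT SCC (log2 fold change 3.02 ± 0.37, adjusted p = 0.00146), and this call held under all 10 other settings and left-out libraries. Whether the labelled groups differ in strain background at this gene was not tested. In KO papilloma Ifi204 had 42.2, 51.1 and 40.6 CPM, against the same WT SCC values (1.66 ± 0.33, adjusted p = 0.0151), a call lost without WT SCC library 1 or 2. Mb21d1, which encodes cGAS, had 10.2 and 9.98 CPM in KO SCC, against 5.37, 5.79 and 6.59 CPM in WT SCC (0.77 ± 0.19, adjusted p = 0.0332), a call kept under 3 of 10 other settings. Ifitm3, which blocks viral entry, had 330.2 and 365 CPM in KO SCC, against 184, 177 and 188 CPM in WT SCC (0.93 ± 0.21, adjusted p = 0.0266), a call lost when any 1 library was left out. Ifi27 fell, with 20.3 and 25.6 CPM in KO SCC, against 54.4, 46.8 and 49.3 CPM in WT SCC (-1.13 ± 0.20, adjusted p = 0.00854), a call lost without KO SCC library 1. These genes thus moved in opposite directions within 1 comparison.

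Set side by side, the 35 genes with rows in both species did not all have the same sign. In 20 of them the log2 fold change was negative in KO SCC against WT SCC and in A431 DUSP1 KO cells against control, in 14 it was positive in mouse and negative in A431, and in 1, Irf1, negative in mouse and positive in A431. None was called in both. Since no mouse member was called, these are signs of values and not shown changes, and the difference between the systems was not tested. The mouse signs also depended on the fit. Across 10 other settings and left-out libraries, the sign of a mouse member turned 35 times in KO SCC against WT SCC. The median of the tested mouse members was 0.11 without KO SCC library 1 and -0.41 without KO SCC library 2. The spread was wider in mouse, where the biological coefficient of variation over all genes was 36.6%, against 6.11% in A431. The mouse value is from the fit of all 4 groups, papilloma and skin included, and not of the SCC libraries alone.

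**Figure D5:**
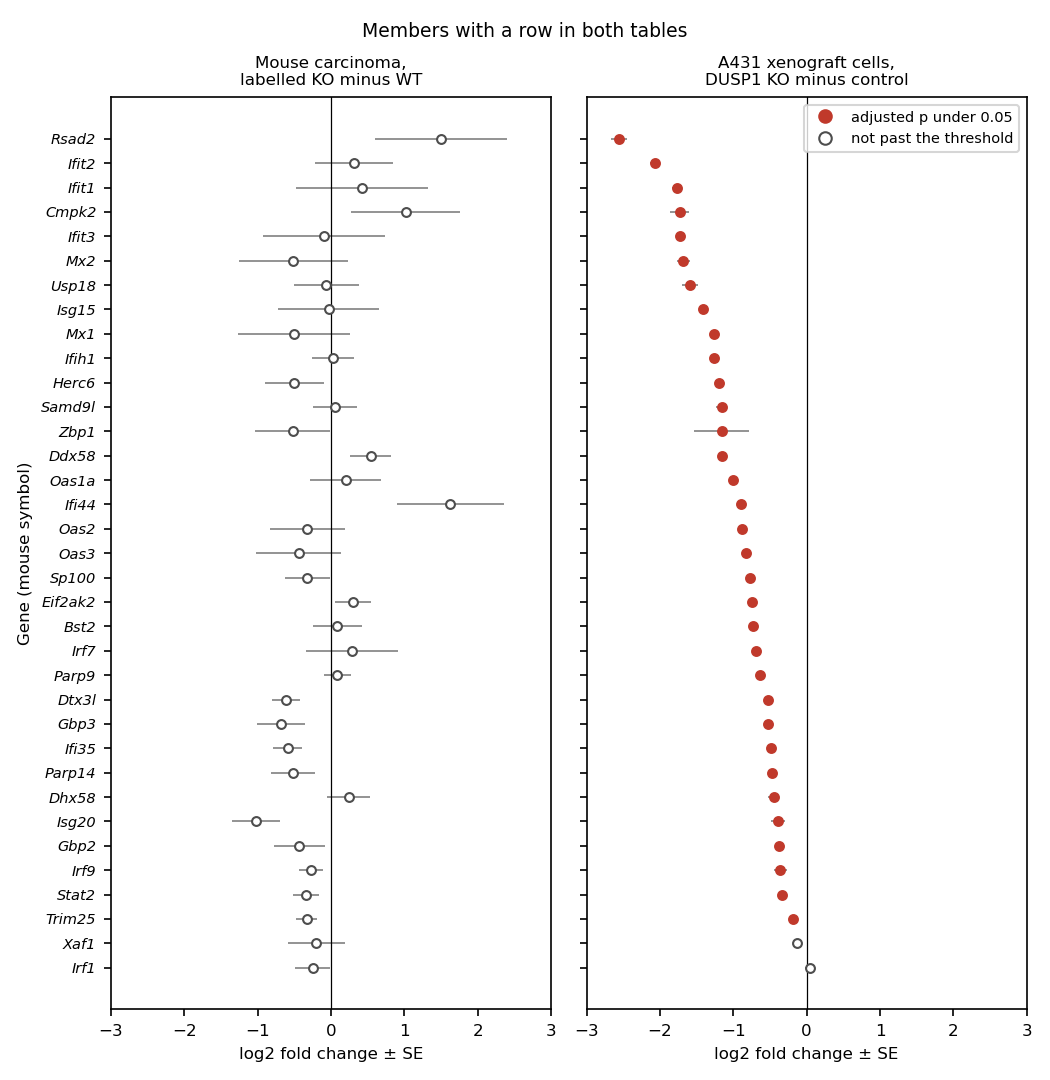
Log2 fold change ± SE of the 35 members with a row in both tables, for mouse SCC labelled KO against WT SCC (left) and A431 DUSP1 KO against control cells (right), ordered by the A431 value. Filled points passed an adjusted p of 0.05: none in mouse, and all but XAF1 and IRF1 in A431.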

How the data were processed

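RNA was measured in 17 libraries made with a stranded kit that selects mRNA, per the labels' protocols. The values used are whole-number counts per gene, deposited by the authors as 1 table for mouse and 1 for A431 without normalization. The tools HISAT2, StringTie and DESeq and the builds mm10 and hg38 are named in the submitters' processing notes; no source used here states the counting rule or annotation, so members with close copies (the Ifit, Oas, Gbp and Mx families) are uncertain. Features without a gene name took up 0.115 to 0.496% of a library and were left out.

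A model with 4 groups was fitted to the 11 mouse libraries and another to the 6 A431 libraries in edgeR 4.0.16 (R 4.3.3), with its default filter on low counts (minimum count 10), TMM normalization and the two-sided quasi-likelihood test. Adjusted p-values are Benjamini-Hochberg values over all genes tested in a comparison, at 0.05. Levels are CPM of the TMM-scaled library size, fold changes are log2 with their SE, and intervals of counting error were not added. No 2 libraries agreed within sampling noise: chi-square per degree of freedom between replicates was 3.54 or more. Scripts were tested on simulated counts with known changes.

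The members and lists were chosen with earlier results of these data known. All members are accounted for in each comparison, and 1 gene of the pathway lists is not reported here. Up to 8 members past the threshold with the smallest p are given with every library; the others are given by counts, ranges or single values, and up to 4 genes of a pathway list by p. Members with no overlap or near a threshold were named after their values were seen. Alternatives were RLE normalization, no filter, DESeq2 1.42.0, the replicate number as a block, a fit of only the groups compared, each library left out, and, chosen after seeing the data, A431 KO libraries 2 and 3 summed. Promoter sequences are from RefSeq on GRCm38.p6.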

Additional observations from a re-analysis of the deposited data

Results flagged for a closer look

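In 4 genes every library labelled KO SCC was above every WT SCC library while every A431 DUSP1 KO library was below every A431 control library. Over all genes 22.9% are separated as higher in KO SCC and 28.2% as lower in A431 DUSP1 KO cells. Of 36 members, 5 were separated as higher in KO SCC and 35 as lower in A431 DUSP1 KO cells. The 4 genes are thus the mouse members separated as higher, without Oasl1, whose upper-case symbol OASL1 had no row in the human table. Human OASL was read among the other interferon-induced genes and was not paired with Oasl1. The share of all genes separated in both ways at once was not computed. Rsad2 had a log2 fold change of 1.5 in mouse and RSAD2 of -2.56 in A431. Ifi44 had 1.63 in mouse and IFI44 -0.89 in A431. Ddx58 had 0.54 in mouse and DDX58 -1.15 in A431. Cmpk2 had 1.02 in mouse and CMPK2 -1.73 in A431. The A431 values passed the threshold and the mouse values did not, and the difference between the systems was not tested. In the mouse libraries Dusp1 was not lower under the KO label.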

How the results depend on the processing

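In KO SCC against WT SCC, where 0 members were called, DESeq2 called 3, a fit of only the groups compared 5 and no filter 3 (18.2%, 22.5% and 6.33% of all genes), with all left-out libraries at 0. In KO papilloma against WT SCC, with 1, they called 5, 4 and 7 (10.2%, 9.97% and 4.96% of all genes), and 1 to 2 with a library left out. In KO SCC against KO papilloma, with 0, DESeq2 called 3 and no filter 2 (5.33% and 1.63% of all genes), and 0 to 1 with a library left out. Counts were 27 to 33 in WT SCC against WT skin and 33 to 35 in A431. Over all genes, calls in KO SCC against WT SCC were 1760, against 3328 with DESeq2, 4160 with only the groups compared, 798 with the replicate block and 302 to 975 with a library left out. In KO papilloma against WT SCC they were 1175, against 2160, 1797, 1854 without a filter and 478 to 1100 with a library left out. In KO SCC against KO papilloma they were 64, against 823 with DESeq2, 611 without a filter, 1 with the block and 0 to 84 with a library left out. Counting each member under each setting, signs of uncalled members turned 35 times in KO SCC against WT SCC. They turned 10 times in KO papilloma against WT SCC, 10 in KO SCC against KO papilloma, 5 in WT SCC against WT skin and 1 in A431. Among them, Oasl1 in WT SCC against WT skin was 0.07 with the block and -0.86 to 0.95 with a library left out (0.95 without WT skin library 3). Eif2ak2 there was -0.06 to 0.10 with a library left out, and A431 IRF1 was -0.0015 without KO library 3. The cause was not tested. Same-numbered libraries did not deviate together (r of -0.41 to 0.17 in mouse and -0.03 to 0.01 in A431). With so few libraries a group, this cannot exclude a shared animal, day or batch. The column names of the KO SCC libraries also carry other numbers than their labels. With the replicate block 0, 1, 0, 30 and 34 members were called in the order KO SCC against WT SCC, KO papilloma against WT SCC, KO SCC against KO papilloma, WT SCC against WT skin, and A431. Calls lost included those of genes with few counts, such as ZBP1, IFNK and Ifng, and those of genes with more counts, such as Dtx3l and Isg15.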
